A study of Mus musculus with 4 samples.

Results

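The Ms4a genes lie side by side on mouse chromosome 19 and encode a family of proteins that cross the cell membrane several times. Their accessible chromatin was described here in microglia, the resident macrophages of the brain, of mice labelled WT and IRF8KO. The windows were all deposited peaks that overlapped the bodies of 9 genes (Ms4a7, Ms4a4a, Ms4a6b, Ms4a6c, Ms4a6d, Ms4a4c, Ms4a4b, Ms4a14 and Ms4a1) or the 10000 bp on either side. Overlapping peaks of the 4 libraries were merged, and a window shared by 2 genes was counted once. This gave 42 windows of 388087 in the genome. The windows were therefore chosen by the presence of a peak in at least 1 library, and their number is a description.

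Accessibility was measured by ATAC-seq, in which the Tn5 transposase cuts open DNA and adds sequencing adapters. Cells were isolated without enzymes and sorted by flow cytometry from untreated C57BL/6 brains at 3 months of age, and each genotype was represented by 2 libraries. IRF8, a DNA-binding regulator first known from interferon responses, is needed by microglia for their mature state and binds DNA together with PU.1. The labels do not state how many brains went into a library or how the IRF8KO allele was made, so that the p-values below measure only the spread between these libraries, which may be technical.

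Several MS4A proteins are known as markers of blood and immune cells. MS4A1 is CD20 of B cells, MS4A2 is a chain of the mast cell IgE receptor, and Ms4a4b is expressed in T cells. Ms4a7 is widely used as a marker of macrophages at the borders of the brain and of macrophages that enter the brain from the bone marrow, whereas resident microglia express it little. The human genes MS4A4A and MS4A6A lie in a locus associated with Alzheimer's disease risk.

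Depth was 46948938 and 48896408 tags for the WT replicates, against 78793572 and 66224648 for IRF8KO, which was 1.51 times as deep on average. The value given for a window is the highest summit pileup, the depth of extended cut sites at a peak summit, per 1000000 tags of that library, called normalised pileup. A library without a peak in a window had no summit past the authors' p cutoff of 0.01, and it has no value there. Over the 58732 windows with a peak in all 4 libraries, the median pileup was lower in IRF8KO, by 0.31 on the log2 scale (-0.31), but the library medians overlapped. On the log2 scale they were -0.38 and -0.70 in WT and -1.21 and -0.53 in IRF8KO, so that the shift rests on IRF8KO replicate 1. Differences are therefore given on normalised pileup and, beside that, after each library was scaled to its median over those windows, which added 0.33 to each log2 difference.

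Sequences from the windows on which the results turn are shown first, from GRCm38, plus strand, as the bases within 100 bp of the summit without annotated exons. Capitals mark matches to CEBP (TTGCNNAA), ISRE (2 GAAA separated by any 2 bases) or MAF (TGCTGAC) motifs on either strand. The Ms4a7 gene is read from the minus strand. The first 4 come from the Ms4a7 intron (chr19:11329610-11329810), the bases just before the Ms4a7 start (chr19:11336147-11336297), those just before the Ms4a4a start (chr19:11375326-11375522), and those just before the first Ms4a4c start (chr19:11404675-11404769).
Ms4a7 intron: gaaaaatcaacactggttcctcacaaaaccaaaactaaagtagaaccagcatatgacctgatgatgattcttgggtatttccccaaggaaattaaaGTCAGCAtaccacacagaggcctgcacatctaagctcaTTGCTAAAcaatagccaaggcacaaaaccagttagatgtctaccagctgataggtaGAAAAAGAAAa
Ms4a7 promoter: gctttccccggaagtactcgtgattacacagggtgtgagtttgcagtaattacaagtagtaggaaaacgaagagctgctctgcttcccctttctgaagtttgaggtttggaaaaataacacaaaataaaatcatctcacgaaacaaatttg
Ms4a4a promoter: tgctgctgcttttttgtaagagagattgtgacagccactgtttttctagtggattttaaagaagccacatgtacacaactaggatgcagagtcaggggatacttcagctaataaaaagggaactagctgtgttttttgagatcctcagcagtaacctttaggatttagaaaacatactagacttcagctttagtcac
Ms4a4c promoter: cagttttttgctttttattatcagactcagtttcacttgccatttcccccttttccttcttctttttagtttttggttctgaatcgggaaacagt

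Alignment of all 861 pairs of windows found that several were copies of each other. The window after Ms4a4c, the window over the 3′ UTR of Ms4a4b and the window before Ms4a6b, called copies A, were 91.9% to 92.4% identical over 225 to 385 aligned columns, in the same orientation. The window before Ms4a6c and a window in a Ms4a6b intron, called copies B, were 96.1% identical over 259 columns. The first pair shown is copies A after Ms4a4c (chr19:11431331-11431531) and before Ms4a6b (chr19:11513653-11513853), and the second is copies B before Ms4a6c (chr19:11468374-11468574) and in Ms4a6b (chr19:11517469-11517669).
Copy A after Ms4a4c: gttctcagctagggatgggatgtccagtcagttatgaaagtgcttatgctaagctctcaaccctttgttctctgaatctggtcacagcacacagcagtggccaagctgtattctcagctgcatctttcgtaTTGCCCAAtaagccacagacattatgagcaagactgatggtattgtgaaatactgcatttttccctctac
Copy A before Ms4a6b: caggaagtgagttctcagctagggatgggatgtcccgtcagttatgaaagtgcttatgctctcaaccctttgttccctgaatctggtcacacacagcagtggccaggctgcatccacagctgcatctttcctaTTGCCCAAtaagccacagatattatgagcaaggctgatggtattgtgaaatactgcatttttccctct
Copy B before Ms4a6c: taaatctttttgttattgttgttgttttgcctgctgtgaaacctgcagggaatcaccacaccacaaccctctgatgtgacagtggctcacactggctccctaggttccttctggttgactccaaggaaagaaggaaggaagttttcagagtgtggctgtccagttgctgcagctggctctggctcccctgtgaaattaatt
Copy B in Ms4a6b: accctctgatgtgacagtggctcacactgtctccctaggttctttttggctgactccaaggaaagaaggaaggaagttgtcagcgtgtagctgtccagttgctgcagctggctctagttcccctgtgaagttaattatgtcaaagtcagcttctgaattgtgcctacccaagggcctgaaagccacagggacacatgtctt

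All 3 copies A held the same CEBP match, TTGCCCAA on the plus strand, shown here with its neighbouring bases (chr19:11431451-11431480, chr19:11465064-11465093 and chr19:11513775-11513804). The site in the Ms4a4b 3′ UTR is cut to 30 bases.
Copy A after Ms4a4c, site: catctttcgtaTTGCCCAAtaagccacaga
Copy A in Ms4a4b, site: catctttcctaTTGCCCAAtatgtcacaga
Copy A before Ms4a6b, site: catctttcctaTTGCCCAAtaagccacaga

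Near-identical copies can share reads. In the copies A after Ms4a4c and in Ms4a4b, 54.1% and 46.7% of the 50-base tags that could place a cut within 36 bp of the summit occur once in the genome. That share was 100% for the copy A before Ms4a6b and the copy B before Ms4a6c, and 94.3% for the copy B in Ms4a6b. How tags with several matches were treated is not given in the sources used here, so the values at the first 2 copies are uncertain as to which copy they came from. Every 50-base stretch in the Ms4a7 and Ms4a4a windows and in those at the Ms4a4c starts occurs once in the genome, as exact matches.

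Of the 42 windows, 30 held a strict peak (−log10 q of 2 or more) in at least 1 library, 20 held a deposited peak in all 4 libraries, and 12 were seen in 1 library only. Summits lay in introns for 18 windows, between genes for 16, in annotated UTRs for 7 and in a non-coding exon for 1. Windows with a strict peak numbered 19 and 21 in the WT replicates, against 25 and 26 for IRF8KO. Windows with a deposited peak, strict or not, numbered 28 in each WT replicate, against 28 and 30 for IRF8KO. The IRF8KO libraries were the deeper ones, and strict windows over the genome were not counted library by library. Whether the gap in strict windows is particular to these genes was therefore not tested. The median window was 266.5 bp long, against 119 bp for all windows.

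**Figure D1:**
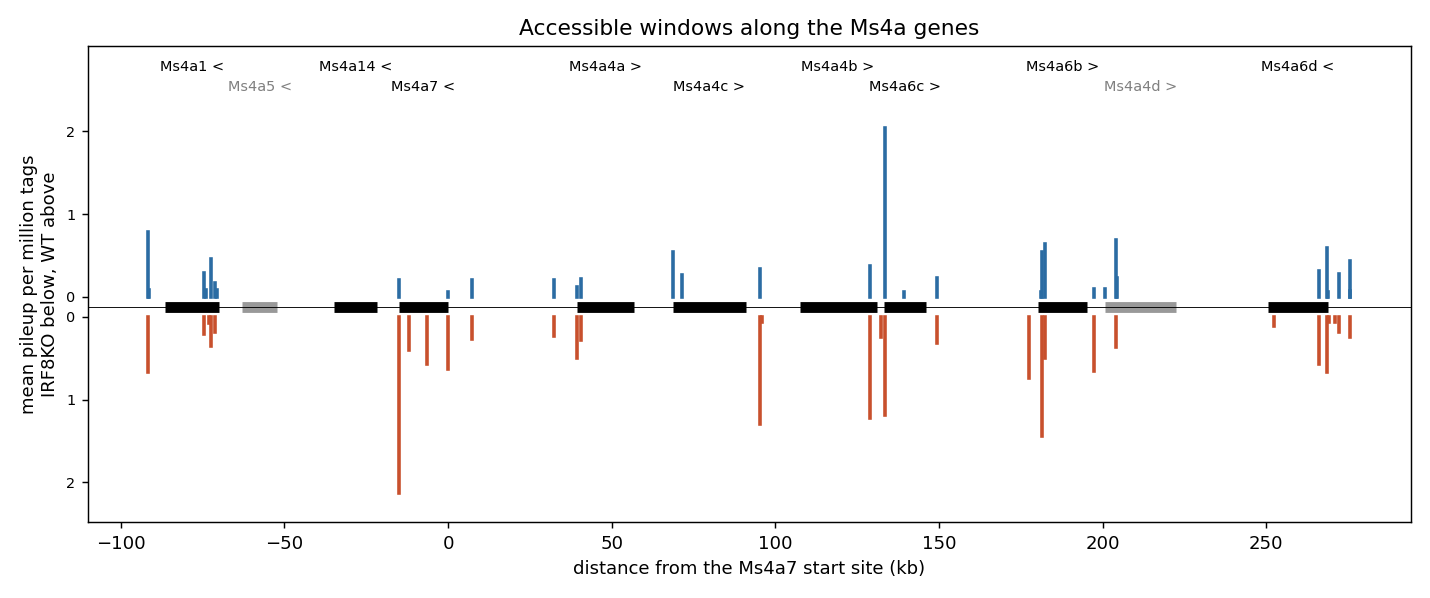
Mean normalised pileup of each window (WT upward, IRF8KO downward, a library without a peak entered as 0) against distance from the Ms4a7 start site in kb. Black bars are the 9 genes, grey bars Ms4a5 and Ms4a4d, and arrows give the direction of transcription. The window at the 3′ end of Ms4a7 is the tallest in IRF8KO and the Ms4a6c promoter the tallest in WT.

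The balance in these windows lay towards IRF8KO. The genes were chosen with earlier results of these data known, so the counts below describe the cluster and do not test it. In the limma fit over all windows with a peak in all 4 libraries, 5 of the 20 Ms4a windows rose in IRF8KO at an adjusted p below 0.05, against a background of 2.8% of the 58732 windows. The copies A after Ms4a4c and in Ms4a4b are both among the 5 and can share reads, so the 5 are not independent. None of the 20 fell, against 6.82% of all windows, and none fell at an unadjusted p below 0.05 or with limma on the authors' fold enrichment. Among only 20 windows, a count of 0 is near that background. After median scaling 6 rose and 0 fell, against backgrounds of 13.5% and 11.7%. The median log2 difference was 0.16 in the 20 windows and -0.31 in all 58732, and 13 of the 20 lay above the latter. These 20 could pass only with a peak in every library, so they are not the 42.

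Without a test, normalised pileup was higher in both IRF8KO libraries than in both WT libraries at 14 of the 42 windows (background 6.19%), and the converse held at 8 (background 11.2%). A library without a peak was ranked lowest in that count. Among windows with a strict peak, the counts were 13 and 8 of 30, against 12.9% and 26.5% of 155258 windows, the second a share level with its background. Windows strict in IRF8KO replicates 1 and 2 and without any peak in WT numbered 4 of the 30 (background 3.87%), and the converse 2 (background 5.59%), the latter a share near its background. Single windows of that kind have no test, since 2 against 2 libraries cannot give an exact permutation p below 0.33. In bulk libraries, more open cells and more open chromatin per cell cannot be told apart.

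**Figure D2:**
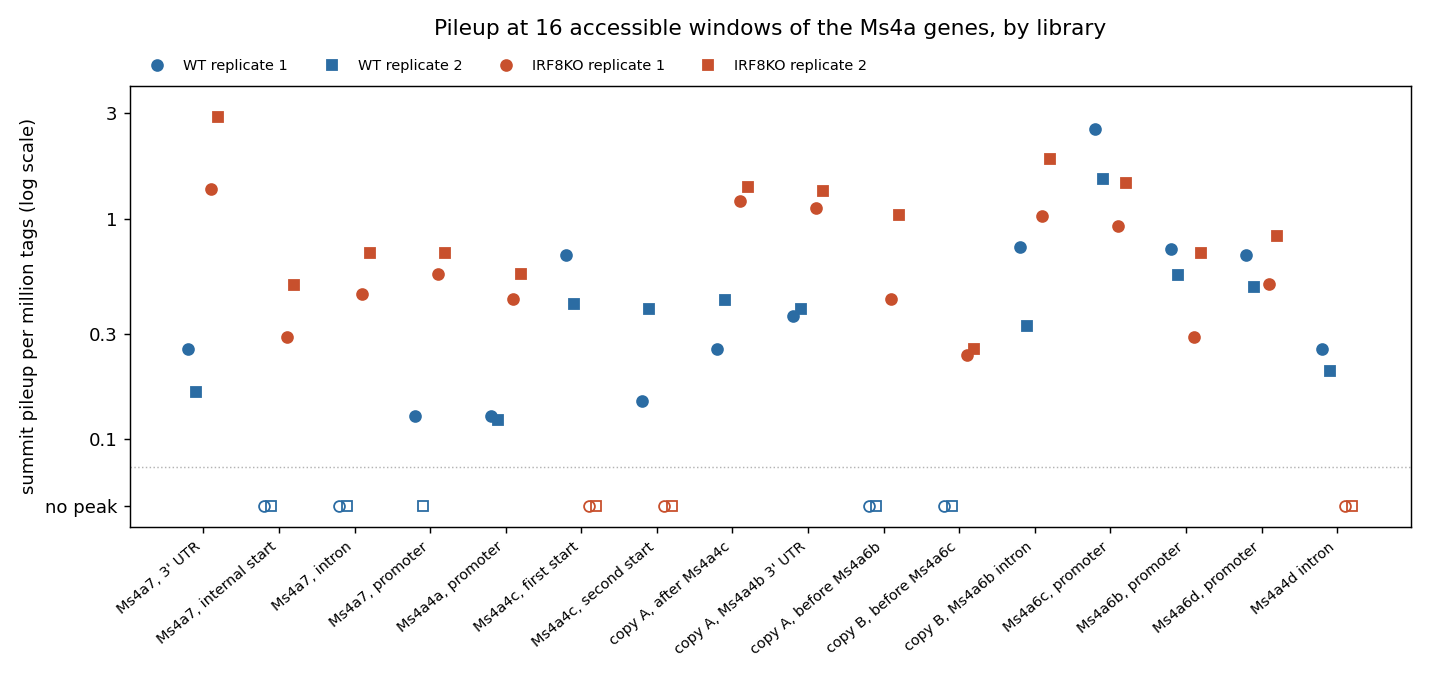
Normalised pileup (log scale) at 16 named windows in each library. Blue is WT and red IRF8KO, circles are replicate 1 and squares replicate 2, and open symbols below the dotted line mark libraries without a peak. All 4 Ms4a7 windows, the Ms4a4a promoter and the copies A and B lie higher in IRF8KO, and the Ms4a4c starts have peaks in WT only.

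Ms4a7, the border macrophage marker, had higher pileup in both IRF8KO libraries than in either WT library at all 4 windows over its promoter and body, and 1 of the 4 could be tested. The largest difference lay over its last exon, with the summit in the 3′ UTR (chr19:11321050-11321505). Normalised pileup there was 0.256 and 0.164 for the WT replicates and 1.36 and 2.88 for the IRF8KO replicates, replicate 1 first here and throughout. Both IRF8KO libraries stood far above both WT libraries, and IRF8KO replicate 2 was the highest.

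The means at the 3′ UTR window were 0.210 ± 0.0650 for WT and 2.12 ± 1.08 for IRF8KO (SD over the 2 libraries), a ratio of 10.1. The log2 difference was 3.27 ± 0.52 (SE; limma, adjusted p 6.22e-08), or 3.60 ± 0.29 after median scaling (limma, adjusted p 4.75e-15). It passed in each alternative fit that held it, with adjusted p-values (limma) from 4.75e-15 to 0.04946, the highest without WT replicate 2. With windows from strict peaks only it could not be fitted, since its peak in WT replicate 2 was not strict.

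The Ms4a7 promoter window (chr19:11335985-11336276) held a normalised pileup of 0.558 and 0.695 in IRF8KO. WT replicate 1 held 0.128, from a peak of pileup 6 that was not strict, and WT replicate 2 held no peak. The groups did not overlap, and the summit lay at -53 bp from the start site. This window had no value in WT replicate 2 and was not in the fit.

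A pair of windows inside Ms4a7 were strict in IRF8KO and empty in WT. The window in an intron of the longer transcripts (chr19:11329485-11329814) held a normalised pileup of 0.457 and 0.695 in IRF8KO. At 0.457 the WT libraries would have reached pileups of 21.5 and 22.3, if pileup scales with tags, where the lowest deposited pileup in MS4A windows was 6. Its sequence held a CEBP, an ISRE and a MAF match. The second window (chr19:11324124-11324389), over a non-coding exon of a short internal transcript, held 0.292 and 0.498.

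The window upstream of Ms4a7 (chr19:11343180-11343462) did not pass the test. Its pileup was 0.213 and 0.205 in WT, against 0.216 and 0.317 in IRF8KO, a log2 difference of 0.33 ± 0.47 (SE; limma, adjusted p 0.76). The lower IRF8KO value was level with the WT values. The 2 windows assigned to Ms4a14, the next gene, were the 3′ UTR and internal windows of Ms4a7 itself. No peak overlapped the Ms4a14 body in any library.

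Markers of other cells were read at their promoters, with no peak entered as 0. Of 6 border macrophage genes, 3 and 4 had a strict promoter peak in the WT replicates, against 4 and 5 for IRF8KO. Their summed normalised pileup was 2.41 and 2.15 in WT and 3.503 and 5.25 in IRF8KO. None was without a peak in all 4 libraries. Pf4, a chemokine, gave most of the difference in that sum, with 0.447 and 0.327 in WT and 1.29 and 1.89 in IRF8KO. Mrc1, a mannose receptor, gave 0.213 and 0.205 in WT and 0.470 and 0.664 in IRF8KO. Cd163, a scavenger receptor, had no promoter peak in WT and 0.520 and 1.10 in IRF8KO. Cbr2 (1.45 and 1.17 in WT, 1.08 and 1.27 in IRF8KO) and F13a1 (0.128 and 0.307, then 0.140 and 0.181) overlapped between genotypes, and Lyve1, a hyaluronan receptor, was at 0.170 or below in every library. Among 9 microglia genes all 9 had strict promoter peaks in both WT libraries and 8 in both IRF8KO libraries, the exception being Sall1. Their summed pileup was 27.2 and 20.002 in WT, against 10.9 and 17.98 in IRF8KO. The summed pileup of 3 endothelial genes was 6.24 and 5.24 in WT and 0.812 and 1.31 in IRF8KO, of which Cdh5 alone gave 5.86 and 4.81 and then 0.647 and 0.936. That of 6 neutrophil or precursor genes was 1.36 and 0.777 in WT and 0.178 and 0.453 in IRF8KO, of which Ltf gave 0.958 and 0.491 and then 0 and 0.196. That of 4 astrocyte genes was 0.660 and 0.389 in WT and 1.10 and 1.98 in IRF8KO, of which Aldh1l1 gave 0.405 and 0.205 and then 0.850 and 1.53. The part of other cells in the Ms4a7 result was not tested.

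Ms4a4a, a macrophage gene whose human counterpart lies in the Alzheimer's disease risk locus, rose at its promoter. The window (chr19:11375268-11375618) held a normalised pileup of 0.128 and 0.123 in WT, both from pileups of 6, and 0.432 and 0.559 in IRF8KO. The groups did not overlap, and neither WT peak was strict. The means were 0.125 ± 0.00360 and 0.495 ± 0.0899 (SD over 2 libraries), a ratio of 3.95. A pileup of 6 was the lowest deposited in any library. The WT SD therefore reflects only the depths of the 2 libraries, and the ratio and log2 difference rest on that floor. The log2 difference was 1.97 ± 0.48 (SE; limma, adjusted p 0.00119), or 2.30 ± 0.37 after median scaling (limma, adjusted p 1.75e-06).

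The other windows of Ms4a4a did not pass the test. The intronic window (chr19:11376471-11376767) held 0.277 and 0.164 in WT and 0.190 and 0.362 in IRF8KO, overlapping ranges. The window upstream (chr19:11368353-11368671) held 0.170 and 0.245 in WT and 0.190 and 0.272 in IRF8KO, which overlapped too.

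Ms4a4c, a gene known to respond to interferon, had peaks at its start sites in WT and none in IRF8KO. At its first start site (chr19:11404569-11404901) normalised pileup was 0.682 and 0.409 in WT, with strict peaks in both libraries, and neither IRF8KO library held a peak. At 0.409 the IRF8KO libraries would have reached pileups of 32.2 and 27.1, if pileup scales with tags, where the lowest deposited in MS4A windows was 8. The window at the second start site (chr19:11407541-11407735) held 0.149 and 0.389 in WT, strict in replicate 2 only, and again no peak in IRF8KO. With a single WT replicate past the strict threshold, the second window was not counted among those open in WT alone.

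Ms4a4b, the T cell gene, had no window within 1000 bp of a start site in any library. The marker list for T or NK cells held strict promoter peaks at 1 of 7 genes in each WT library and 2 of 7 in each IRF8KO library, and Cd3e and Cd3g had no peak in any. Its summed pileup was 1.21 and 1.37 in WT and 3.59 and 3.81 in IRF8KO, most of it at Cd3d, which alone gave 0.873 and 1.08 and then 3.44 and 3.44. The part of T cells at the copy A over the Ms4a4b 3′ UTR, described next, was not tested.

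Of the copies A between and beside these genes, 2 rose in IRF8KO and the third was empty in WT. The copy after Ms4a4c (chr19:11431158-11431811) held a normalised pileup of 0.256 and 0.429 in WT, against 1.21 and 1.39 in IRF8KO. The copy over the Ms4a4b 3′ UTR (chr19:11464921-11465347) held 0.362 and 0.389 in WT and 1.12 and 1.33 in IRF8KO. At both copies all IRF8KO values lay above all WT values, and the values of the 2 copies resembled each other. These 2 windows share 62 of their 50-base stretches.

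The log2 differences were 1.97 ± 0.52 after Ms4a4c and 1.70 ± 0.51 in Ms4a4b (SE; limma, adjusted p 0.00336 and 0.0147). After median scaling they were 2.29 ± 0.30 and 2.02 ± 0.28 (limma, adjusted p 1.70e-08 and 6.91e-08). The copy before Ms4a6b (chr19:11513590-11513856), at which tags are unique around the summit, held 0.432 and 1.04 in IRF8KO and no peak in either WT library. The lower of these would have given pileups of 20.3 and 21.1 in the WT libraries, if pileup scales with tags.

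Ms4a6b, Ms4a6c and Ms4a6d are the myeloid members of the cluster most alike in sequence. Their promoter windows aligned to each other, Ms4a6b and Ms4a6c at 95.3% identity over 404 columns, and Ms4a6d to these at 82.8% and 81.6% in the opposite orientation. The Ms4a6b and Ms4a6c promoter windows share 106 50-base stretches, and 83.6% and 95.1% of the tags that could place a cut near their summits occur once in the genome. The Ms4a6c promoter (chr19:11469259-11469745) was the most accessible window of the cluster by its mean over the 4 libraries, with 2.56 and 1.51 in WT, against 0.926 and 1.45 in IRF8KO. Both WT values exceeded both IRF8KO values, but the gap between WT replicate 2 and IRF8KO replicate 2 was small beside the spread of either group. The log2 difference was -0.76 ± 0.45 (SE; limma, adjusted p 0.343), or -0.44 ± 0.22 after median scaling (limma, adjusted p 0.146). Without IRF8KO replicate 2 it passed, at -1.09 (limma, adjusted p 0.0275).

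The Ms4a6b promoter (chr19:11518441-11518839) held 0.724 and 0.552 in WT and 0.292 and 0.695 in IRF8KO, with overlapping ranges. Its log2 difference was -0.49 ± 0.53 (SE; limma, adjusted p 0.67) and took the other sign, 0.14, without IRF8KO replicate 1. The Ms4a6d promoter (chr19:11604500-11604960) held 0.682 and 0.491 in WT and 0.508 and 0.831 in IRF8KO, also overlapping. Its log2 difference was 0.17 ± 0.52 (SE; limma, adjusted p 0.898). No promoter of the 3 Ms4a6 genes passed the test with all 4 libraries. Of 5 monocyte marker genes, 1 had a strict promoter peak in each library, Ccr2 and Plac8 had none in any, and the list's summed pileup overlapped between genotypes, from 0.277 to 0.491 in WT and from 0.165 to 0.483 in IRF8KO.

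**Figure D3:**
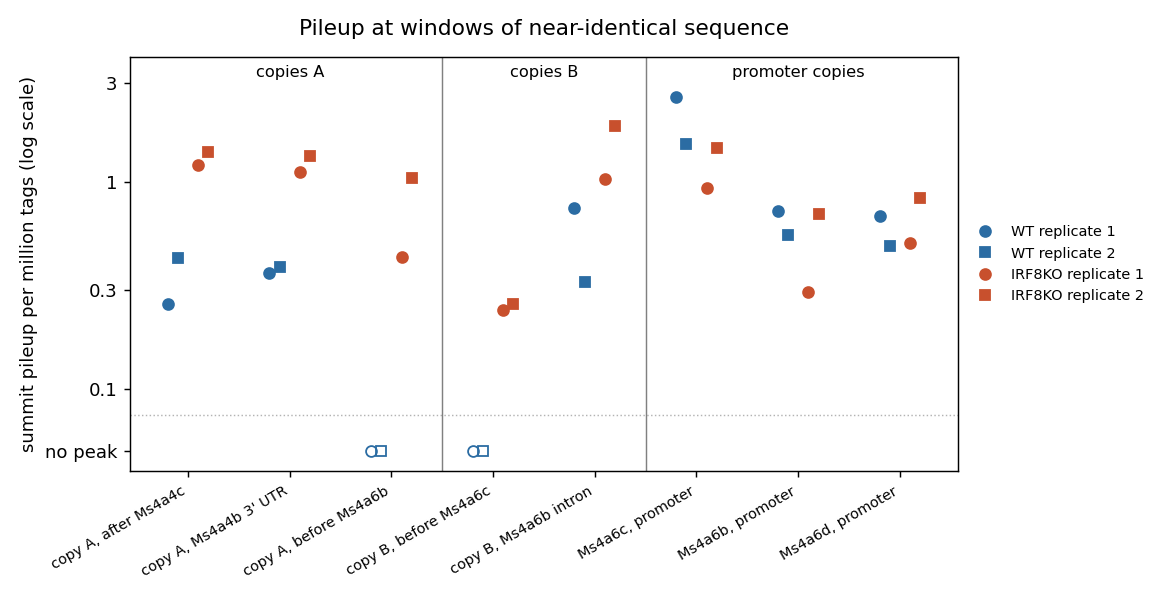
Normalised pileup (log scale) in each library at the copies A, the copies B and the 3 Ms4a6 promoters, symbols as in the plot of 16 windows. At every copy A and B both IRF8KO values lie above both WT values or WT has no peak, while values at the Ms4a6b and Ms4a6d promoters overlap between genotypes.

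The copies B lay close to these promoters. The copy in the Ms4a6b intron (chr19:11517420-11517887), whose summit lay at -990 bp from the nearest start site, held a normalised pileup of 0.745 and 0.327 in WT and 1.03 and 1.86 in IRF8KO. Both IRF8KO values were above both WT values. The log2 difference was 1.48 ± 0.50 (SE; limma, adjusted p 0.0333), or 1.81 ± 0.27 after median scaling (limma, adjusted p 3.63e-07). The copy before Ms4a6c (chr19:11468430-11468688), whose summit lay at -892 bp, had no peak in WT and held 0.241 and 0.257 in IRF8KO. This was the faintest of the 4 windows open in IRF8KO alone, with −log10 q values of 4.07 and 2.42, and pileups of 11.3 and 11.8 would match its level in WT.

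Other windows around Ms4a6b did not pass the test or could not be fitted. The window between Ms4a6b and Ms4a4d (chr19:11533421-11533707), which held a PU.1 and a CEBP match, gave 0.432 and 0.876 in IRF8KO. It gave 0.184 in WT replicate 2 and no peak in WT replicate 1. Inside the neighbouring Ms4a4d intron, within the flank of Ms4a6b, a window with 2 ISRE matches (chr19:11540219-11540459) held 0.767 and 0.614 in WT and 0.330 and 0.393 in IRF8KO. Its groups did not overlap, and the log2 difference was -0.93 ± 0.53 (SE; limma, adjusted p 0.328). Beside it lay the second window open in WT alone (chr19:11540557-11540639), with 0.256 and 0.205 in WT.

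At Ms4a6d a window in an intron (chr19:11602088-11602367) held 0.383 and 0.245 in WT and 0.444 and 0.695 in IRF8KO. Its log2 difference of 0.86 ± 0.53 did not pass on normalised pileup (SE; limma, adjusted p 0.386) and did after median scaling, at 1.18 ± 0.33 (limma, adjusted p 0.00417). The upstream window at chr19:11611488-11611721 held 0.469 and 0.409 in WT, above the 0.178 and 0.317 in IRF8KO, and did not pass (limma, adjusted p 0.34).

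Ms4a1, which encodes CD20, had no peak at its start site. The nearest window, 660 bp away, held a peak of pileup 8 in WT replicate 1 alone. The 4 windows with a peak in every library lay in or after the gene, where the long non-coding gene 4930526L06Rik overlaps it. The most accessible (chr19:11244297-11244595) held 0.682 and 0.879 in WT and 0.533 and 0.8003 in IRF8KO, which overlap, and it had an ETS-IRF match (GGAA and GAAA separated by any 2 bases). None of the 4 passed the test, with adjusted p-values (limma) from 0.586 to 0.873. Of 6 B cell marker genes, strict promoter peaks were seen at 1 in 3 of the libraries and at 2 in IRF8KO replicate 2, and Cd79a and Blk had no peak in any library. The summed pileup of that list was 0.724 and 0.695 in WT and 0.267 and 0.483 in IRF8KO, and its part at Ms4a1 was not tested.

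**Figure D4:**
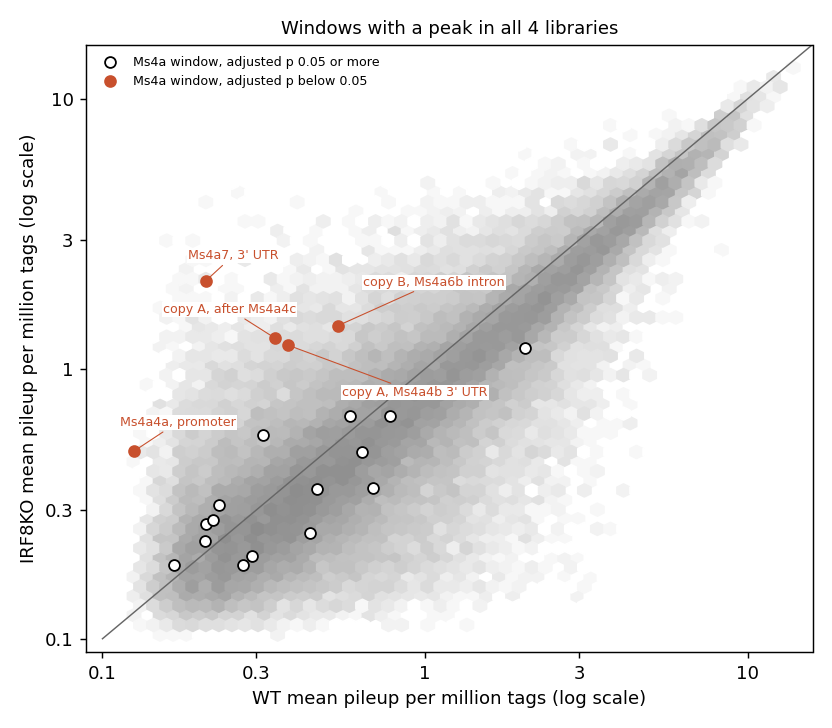
Mean normalised pileup in IRF8KO against WT (both log scale) for the 58732 windows with a peak in all 4 libraries (grey, darker with more windows) and the 20 Ms4a windows among them (circles). The line marks equal values. The 5 filled circles, led by the Ms4a7 3′ UTR, lie above the line, and the Ms4a6c promoter is the open circle farthest to the right.

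Leaving out a WT library left 1 WT library in the fit, which was assumed to vary like the IRF8KO libraries. Without WT replicate 1 or WT replicate 2 the Ms4a7 3′ UTR was the only Ms4a window called (limma, adjusted p 0.0116 and 0.0495), while calls of higher pileup over the genome dropped from 1643 to 142 and 143. The adjusted p-values (limma) without WT replicate 1 and without WT replicate 2 were 0.453 and 0.3745 at the Ms4a4a promoter. They were 0.780 and 0.243 at the copy A after Ms4a4c, 0.7485 and 0.548 at the copy A in Ms4a4b, and 0.423 and 0.9565 at the copy B in Ms4a6b. The log2 differences in these fits were 2.001 and 1.94 at the Ms4a4a promoter, 1.59 and 2.34 at the copy A after Ms4a4c, and 1.65 and 1.75 at the copy A in Ms4a4b, with SEs of 0.82 to 0.88. At the copy B in Ms4a6b they were 2.08 and 0.89. The copy B in Ms4a6b was also lost without IRF8KO replicate 2 (limma, adjusted p 0.0684) and on fold enrichment (limma, adjusted p 0.141). No direction changed among these 5 windows in any of these fits.

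Motifs were counted on both strands in the 201 bp around each summit. The CEBP motif, bound by factors of the C/EBP family that act in myeloid cells, was present in 11 of the 42 windows (26.2%), against 8.47% of all windows and 9.55% of windows with a strict peak. The 3 copies A supply 3 of the 11 and share a sequence, so they are not independent. CEBP matches stood in the Ms4a7 3′ UTR window, the Ms4a7 intron window, all copies A and the window between Ms4a6b and Ms4a4d, at all of which both IRF8KO values lay above WT. They also stood in 5 windows without that pattern, of which 3 had peaks in all 4 libraries and did not pass the test, and 2 had a peak in 1 WT library alone. The Ms4a7 promoter window, the window over the non-coding exon inside Ms4a7, the Ms4a4a promoter and both copies B held none.

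The ETS-IRF composite motif, which PU.1 and IRF8 can bind together, was found in 2 windows (4.76%, against 2.80% of all windows), both at Ms4a1. ISRE was found in 2 windows (2.41% of all windows), PU.1 (GAGGAAGT) in 4 (4.47%), AP-1 (TGANTCA) in 3 (7.40%), and RUNX (TGTGGTT) and MAF in 2 each (4.89% and 4.47%). No ETS-IRF or ISRE match stood in either Ms4a4c window, which says only that these letters are absent there. No match overlapped a match of another motif in the 42 windows. A match is a description of letters.

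The flank of 10000 bp set the edge of the windows. On the Ms4a1 side, the nearest window inside the edge was the window after Ms4a1 described above. The nearest outside was a window at chr19:11234297-11234662, near Ms4a12, with 0.383 and 0.348 in WT and 0.368 and 0.695 in IRF8KO. Past the Ms4a6b flank, after Ms4a4d, lay a window at chr19:11559672-11559935 with no peak in WT and 0.571 and 0.544 in IRF8KO.

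The remaining 10 MS4A genes listed (Ms4a2, Ms4a3, Ms4a4d, Ms4a5, Ms4a8a, Ms4a10, Ms4a12, Ms4a13, Ms4a15 and Ms4a18) added 31 windows. Of these, 7 held a peak in all 4 libraries, and limma called 0 of the 7 in either direction, with 0 at an unadjusted p below 0.05 and 0 on fold enrichment or after median scaling. Of the 18 with a strict peak in at least 1 library, 3 were open in IRF8KO alone (background 3.87%), beside 4 of 30 at the 9 genes, and 0 in WT alone. The IRF8KO-alone windows are therefore not shown to be particular to the 9 genes. Ms4a2, the IgE receptor chain, and Ms4a5 held no window of their own beyond those of the 9 genes.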

How the data were processed

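Per the file headers, the deposited peaks of each library came from its own MACS 2.1.1.20160309 run with a p cutoff of 0.01 and no control sample. The submitters' processing notes name Bowtie2 and the build mm10, and coordinates are given on GRCm38 with GENCODE M21. The deposited pileup is a signal and was not scaled for sequencing depth. The authors' fold enrichment is a ratio to the local background, and the deposited q is given as −log10. Tag size followed genotype, 50 bp in WT and 49 bp in IRF8KO per the file headers, and its effect cannot be told apart from it.

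All deposited peaks on 20 chromosomes were merged into windows by at least 1 bp of overlap. Pileup was expressed per 1000000 header tags (normalised pileup). Log2 values were fitted with limma 3.58.1 (trend) with Benjamini-Hochberg adjustment over all windows, and the fit was tested on simulated data. Windows were aligned with Biopython 1.88. Windows named are those open in 1 genotype alone, those with the 10 smallest adjusted p below 0.05, the 5 with highest mean pileup, and promoters; others named were chosen after their values were seen. Members and lists were chosen with earlier results of these data known.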

Additional observations from a re-analysis of the deposited data

How the results depend on the processing

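The call of higher pileup in IRF8KO covered 5 of 20 windows, and moved to 2 with the replicate block and 3 with windows from strict peaks only, where the Ms4a7 3′ UTR and the Ms4a4a promoter could not be fitted for want of a strict peak in every WT library. Leaving out a replicate gave 1 to 5. The count of lower pileup was 0, and 0 to 2 with a replicate left out, the 2 coming without IRF8KO replicate 2. The block kept the Ms4a7 3′ UTR (limma, adjusted p 0.003195) and the Ms4a4a promoter (limma, adjusted p 0.03565). Replicate numbers are labels, and a shared number need not mean a shared preparation. Same-numbered deviations correlated at 0.00245 over windows, which cannot settle whether it does. Over the genome the block lowered calls from 1643 higher and 4008 lower to 328 and 869. The share of calls that were higher was 29.1% on normalised pileup, 53.4% after median scaling (7908 higher, 6895 lower) and 40.7% on fold enrichment (1414 and 2056). Leaving out a library moved that share to 48.8% without WT replicate 1 (142 and 149), 44.3% without IRF8KO replicate 1 (3826 and 4811) and 10.7% without IRF8KO replicate 2 (1566 and 13036). Windows open in IRF8KO alone numbered 4, but 7 from strict peaks only and 2 without flanks. Windows open in WT alone numbered 2, and 1 both at −log10 q of 5 and without flanks. Leaving out a replicate gave 4 to 5 and 2 to 4. Non-overlapping windows numbered 14 and 8, then 9 and 4 without flanks, and 15 to 22 and 8 to 14 with a replicate left out. Fewer windows or libraries enter these settings by construction, and with a library left out both rules are more easily met. For windows open in 1 genotype alone and for non-overlapping windows, shares over all windows were not counted under these settings. Those counts therefore have no background beside them. The log2 difference ran from -1.12 to 0.14 at the Ms4a6b promoter with a replicate left out, turning without IRF8KO replicate 1, and from -0.19 to 0.52 at the Ms4a6d promoter, turning without IRF8KO replicate 2 (-0.19) or WT replicate 2 (-0.07). Neither promoter was called in any of these fits. Median scaling and fold enrichment gave 6 and 4 windows called higher, and 0 lower in both. The counts of windows open in 1 genotype alone do not use pileup and were not run under these 2 settings. The rule that over 50% of a window lie inside the region gave 5 called higher. Faint windows are limited by depth, since peaks with pileups of 6 to 8 were the weakest deposited near these genes.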
